A study of Mus musculus with 18 samples.

Results

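To follow macrophage and myeloid transcripts during differentiation of hypomethylated cells, 8 genes were examined: Csf1r, Cx3cr1, Ccl3, Ccl4, Tyrobp, Fcer1g, Cd68 and Ptprc. They were taken by name from the gene symbols assigned to the probe sets, and each was measured by exactly 1 of the 35512 probe sets on the array. The 8 genes were chosen with earlier results of these data known. Their counts beside the shares of all probe sets below are thus descriptions and not tests. Transcript levels were measured on Affymetrix Mouse Gene 1.0 ST arrays in mouse embryonic stem cells (ESCs, day 0) and in embryoid bodies (EBs, aggregates grown in hanging drops in which the cells differentiate without direction) at day 4 and day 16. The cells were TKO ESCs, which lack Dnmt1, Dnmt3a and Dnmt3b, Dnmt1-/- ESCs, which lack the maintenance methyltransferase alone, and wild type (wt) ESCs, all with the J1 (129Sv/Jae) background. Each of the 9 genotype and day groups had 2 arrays, labelled as biological replicates 1 and 2, giving 18 arrays. As each genotype was represented by the ESC line of that name, effects of the genotype and of the individual line cannot be told apart. EBs are mixtures of cell types, so fewer cells of a type and less RNA per cell cannot be told apart either.

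Macrophages are phagocytes that arise early in the embryo from yolk sac progenitors as well as later from haematopoietic stem cells, and they also appear when EBs form blood. Their survival and proliferation depend on the kinase receptor Csf1r, which binds Csf1 and Il34, and their identity depends on the transcription factor PU.1, encoded by Spi1. Many of their activating receptors carry no signalling tail of their own and signal through the adaptors Tyrobp (DAP12) and Fcer1g (the Fc receptor gamma chain), whose ITAM motifs recruit the kinase Syk. Activated macrophages release the chemokines Ccl3 and Ccl4, also called MIP-1 alpha and MIP-1 beta.

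In the RefSeq annotation of GRCm38.p6, Ptprc lies at chr1:138062859-138175756 and Fcer1g at chr1:171229572-171234349. Tyrobp lies at chr7:30413782-30417582, Cx3cr1 at chr9:120048683-120068296 and Cd68 at chr11:69664213-69666170. Ccl3 (chr11:83647843-83649378) and Ccl4 (chr11:83648624-83664683) are neighbours whose annotated models overlap by 755 bases, so the signal of either probe set cannot be assumed free of the other transcript. The 250 bases before the annotated start are shown for Ccl3, which had the largest change of the 8 genes, for Cd68, which was high already in ESCs, for Ptprc, and for Fcer1g, which lay above its earlier range in day 16 Dnmt1-/- EBs. In the set of RefSeq promoter windows used here, 5 of the 8 genes were matched by symbol, and Csf1r, Ccl4 and Tyrobp were not. Ptprc has 2 listed starts, of which the first is shown. All are given 5′ to 3′ on the minus strand of GRCm38.p6 at chr11:83649379-83649628 for Ccl3, chr11:69666171-69666420 for Cd68, chr1:138175306-138175555 for Ptprc, inside its annotated span, and chr1:171234350-171234599 for Fcer1g. Capitals mark GAGGAA, the core of the PU.1 recognition sequence, or its reverse complement TTCCTC.
Ccl3: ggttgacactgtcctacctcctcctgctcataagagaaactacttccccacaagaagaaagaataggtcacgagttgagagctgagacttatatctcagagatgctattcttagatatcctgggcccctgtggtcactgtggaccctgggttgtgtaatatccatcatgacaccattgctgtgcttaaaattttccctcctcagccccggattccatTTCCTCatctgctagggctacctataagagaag
Cd68: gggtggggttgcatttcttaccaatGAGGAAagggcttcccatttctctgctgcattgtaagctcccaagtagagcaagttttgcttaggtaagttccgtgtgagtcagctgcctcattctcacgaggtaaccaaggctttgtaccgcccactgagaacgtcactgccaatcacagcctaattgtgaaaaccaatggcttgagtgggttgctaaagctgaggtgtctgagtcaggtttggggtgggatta
Ptprc: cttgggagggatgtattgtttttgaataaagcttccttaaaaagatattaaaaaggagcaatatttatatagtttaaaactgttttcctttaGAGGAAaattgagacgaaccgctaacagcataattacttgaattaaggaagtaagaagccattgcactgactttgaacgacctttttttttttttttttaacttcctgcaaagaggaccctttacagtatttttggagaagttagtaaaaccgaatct
Fcer1g: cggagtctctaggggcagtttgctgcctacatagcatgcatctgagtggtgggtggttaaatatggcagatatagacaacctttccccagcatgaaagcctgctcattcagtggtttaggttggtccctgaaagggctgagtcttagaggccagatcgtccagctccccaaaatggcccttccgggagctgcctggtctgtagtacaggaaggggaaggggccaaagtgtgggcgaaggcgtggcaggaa

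The core was found in 3 of the 6 windows of these genes, against 23.3% of 32851 RefSeq windows of the same length. Its first base lay at -33 from the start of Ccl3, -225 from that of Cd68 and -158 from that of Ptprc, and it overlapped no other occurrence in these windows. Neither Fcer1g, Cx3cr1 nor the other Ptprc window held these letters. The same windows extended by 50 bases past the start held 3 CpGs at Ccl3, 4 at Cd68, 4 and 2 at the Ptprc starts, 5 at Cx3cr1 and 7 at Fcer1g, against a median of 7 over all RefSeq windows (quartiles 3 and 20). CpGs are the sites that Dnmts methylate, and none of the 6 windows exceeded the median.

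All 8 genes reached their highest values in wt EBs at day 16: for 8 of 8, both wt day 16 arrays lay above all 16 other arrays. Of all probe sets, 5.97% had this pattern. As the 8 genes were chosen with earlier results of these data known, that share is a background and not a test. The values of every array are plotted gene by gene.

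**Figure D1:**
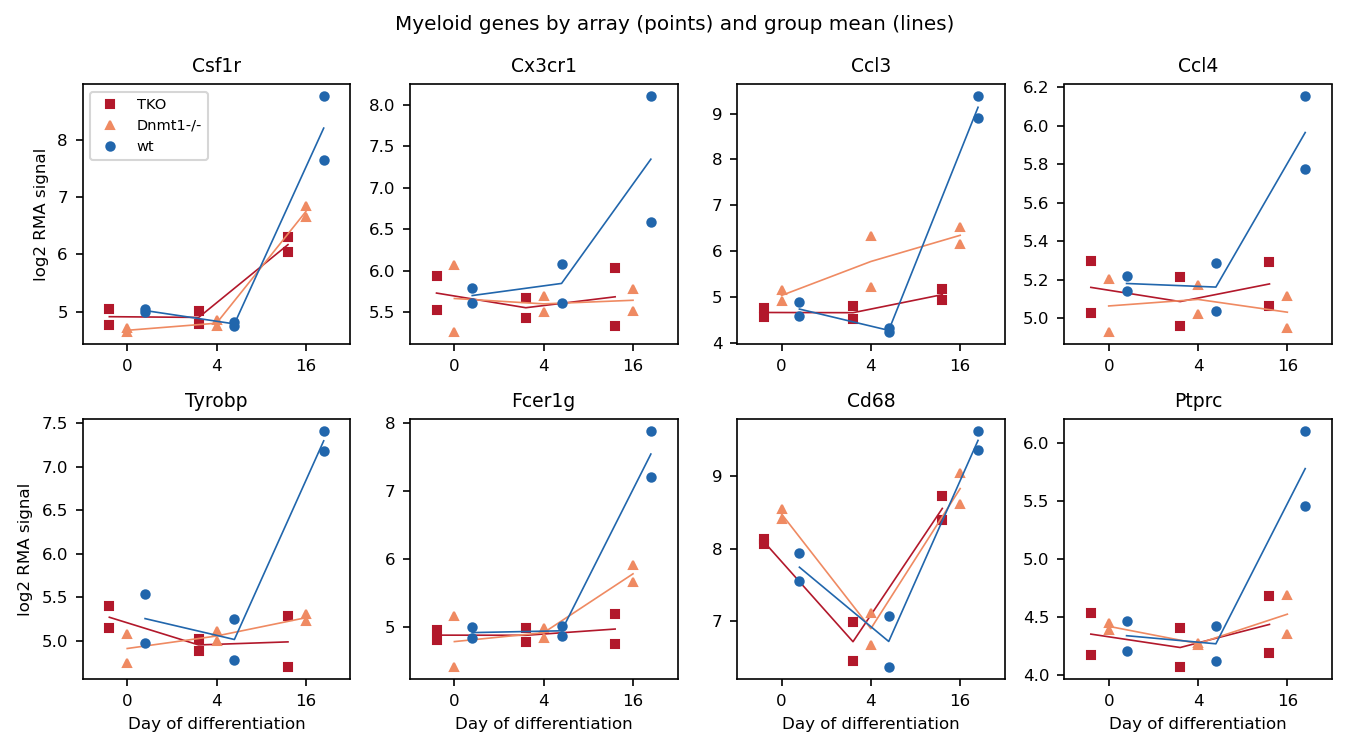
Log2 RMA signal (y axis, a separate scale for each gene) of the 8 myeloid genes at day 0, 4 and 16 of differentiation (x axis) in TKO (squares), Dnmt1-/- (triangles) and wt (circles). Points are single arrays, 2 for each group, and lines join group means. In each panel the 2 wt day 16 arrays lie above all others. In TKO, Csf1r and Cd68 were called higher at day 16 than at day 4, and neither call held with only the compared arrays in the fit.

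Csf1r, the receptor on which macrophages depend, encoded on chromosome 18, rose in all 3 genotypes by day 16, with the smallest change in TKO and the largest in wt. Its log2 signal at day 16 was 6.30 and 6.04 in TKO EBs, 6.83 and 6.66 in Dnmt1-/- EBs, and 7.64 and 8.75 in wt EBs, while the 12 arrays of day 0 and day 4 lay between 4.64 and 5.05. The 3 genotypes did not overlap at day 16, and each lay above its own earlier arrays. From day 4 to day 16 the log2 change was 1.27 ± 0.26 (SE) in TKO, 1.95 ± 0.26 in Dnmt1-/- and 3.41 ± 0.26 in wt, the last equal to a 10.6-fold rise (adjusted p = 0.027, 0.00085 and 4.8e-06 in that order). A gene was called changed when its fold was at least 2 and its adjusted p below 0.05, as the study did, and all 3 changes of Csf1r were called. The TKO call did not hold when any 1 of its 4 arrays was left out (log2 changes of 1.37 and 1.16 without day 4 replicate 1 or 2, and 1.14 and 1.40 without day 16 replicate 1 or 2, adjusted p of 0.13, 0.17, 0.12 and 0.10). The wt and Dnmt1-/- calls held whichever of their arrays was left out.

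At day 16 the Csf1r level was lower in the mutants, with a log2 difference from wt of -2.03 ± 0.26 in TKO EBs (4.09-fold, adjusted p = 0.00024). In Dnmt1-/- EBs the difference was -1.45 ± 0.26 (2.74-fold, adjusted p = 0.0057). This call did not hold without wt day 16 replicate 2 (log2 difference -0.90, under the fold threshold, adjusted p = 0.017) or without Dnmt1-/- day 16 replicate 2 (-1.37, adjusted p = 0.056). Between TKO and Dnmt1-/- EBs the difference was -0.58 (95% interval -1.15 to -0.00, adjusted p = 0.36), so the order of the mutants was not resolved across the whole table. The ligands of the receptor, Csf1 and Il34, were measured too, and neither was called between day 4 and day 16 in any genotype. Csf1 had 6.20 and 5.55 in TKO, 6.21 and 6.10 in Dnmt1-/-, and 6.31 and 6.57 in wt EBs at day 16.

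Cx3cr1, the fractalkine receptor found on monocytes and microglia, was called in wt EBs alone, and its 2 wt arrays were far apart. At day 16 its log2 signal was 5.34 and 6.03 in TKO, 5.52 and 5.78 in Dnmt1-/-, and 6.59 and 8.10 in wt. The mutant arrays lay within the range of the 12 arrays of day 0 and day 4 (5.26 to 6.09), and the 2 wt arrays differed from each other by more than the lower of them differed from the mutants. The log2 change from day 4 to day 16 was 0.13 ± 0.42 in TKO, 0.04 ± 0.42 in Dnmt1-/- and 1.49 ± 0.42 in wt (adjusted p = 0.93, 0.98 and 0.031). The wt call was lost without wt day 16 replicate 2 (0.74, adjusted p = 0.30), without wt day 4 replicate 1 (1.26, adjusted p = 0.18) and without wt day 4 replicate 2 (1.73, adjusted p = 0.061).

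Relative to wt at day 16, Cx3cr1 was lower, with a log2 difference of -1.66 ± 0.42 in TKO (adjusted p = 0.019) and -1.70 ± 0.42 in Dnmt1-/- EBs (adjusted p = 0.033). Without wt day 16 replicate 2 these differences were -0.90 and -0.94 and not called (adjusted p = 0.18 and 0.28). They were also not called without TKO day 16 replicate 1 (-1.31, adjusted p = 0.13), Dnmt1-/- day 16 replicate 1 (-1.57, adjusted p = 0.19) or Dnmt1-/- day 16 replicate 2 (-1.83, adjusted p = 0.11).

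Ccl3 showed the largest change of the 8 genes. At day 16 its log2 signal was 4.92 and 5.17 in TKO, 6.53 and 6.16 in Dnmt1-/-, and 9.38 and 8.90 in wt EBs. The genotypes did not overlap, and the TKO arrays lay close above those of the same line at day 0 and day 4 (4.51 to 4.80). The log2 change from day 4 to day 16 was 0.39 ± 0.30 in TKO, 0.57 ± 0.30 in Dnmt1-/- and 4.87 ± 0.30 in wt, the last a 29.2-fold rise (adjusted p = 0.62, 0.38 and 6.7e-07). The log2 difference from wt at day 16 was -4.09 ± 0.30 in TKO (17.0-fold lower, adjusted p = 2.6e-06) and -2.79 ± 0.30 in Dnmt1-/- EBs (6.94-fold, adjusted p = 0.0001).

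Ccl3 was higher in Dnmt1-/- than in wt EBs already at day 4, on 1 array more than on the other. Those Dnmt1-/- day 4 arrays, replicates 1 and 2, also differed in genes of undifferentiated ESCs. The mean log2 signal of 6 such genes was 9.19 and 7.61, and that of Pou5f1 was 10.58 and 8.89. The part of that difference in the Ccl3 values was not tested. For Ccl3 the Dnmt1-/- arrays read 4.91 and 5.15 at day 0, 6.33 and 5.22 at day 4, and 6.53 and 6.16 at day 16. Thus 1 day 4 array was close to day 0 and the other to day 16. Against day 0 the day 16 level was higher by 1.31 ± 0.30 (adjusted p = 0.0092), which was no longer called without day 0 replicate 1 (1.19, adjusted p = 0.063) or day 16 replicate 1 (1.13, adjusted p = 0.083). At day 4 Ccl3 was 1.50 ± 0.30 higher in Dnmt1-/- than in wt EBs, whose arrays read 4.31 and 4.22 (adjusted p = 0.035). That call was lost without Dnmt1-/- day 4 replicate 1 (0.95, adjusted p = 0.26), wt day 4 replicate 1 (1.55, adjusted p = 0.22) or wt day 4 replicate 2 (1.46, adjusted p = 0.21), and in a fit of the 4 arrays alone (adjusted p = 0.59). Without Dnmt1-/- day 4 replicate 2, Ccl3 was also called against day 0 of that line (1.30, adjusted p = 0.014) and in TKO against Dnmt1-/- EBs at day 4 (-1.67, adjusted p = 0.029).

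Ccl4, the sister chemokine, had the smallest change of the 8 in wt EBs from day 4 to day 16. At day 16 its log2 signal was 5.06 and 5.29 in TKO, 4.95 and 5.11 in Dnmt1-/-, and 6.15 and 5.78 in wt EBs. The mutant arrays lay in the band of the earlier days (4.93 to 5.29) and both wt arrays above it. The change from day 4 to day 16 in wt was 0.80 ± 0.18 (adjusted p = 0.0089), which passed the false discovery rate but not the fold threshold, and in TKO and Dnmt1-/- it was 0.09 ± 0.18 and -0.07 ± 0.18. Its differences from wt at day 16, -0.79 in TKO and -0.93 in Dnmt1-/- EBs, also stayed under the threshold (adjusted p = 0.01 and 0.0074). Without wt day 16 replicate 2 the Dnmt1-/- difference passed it (-1.12), as it did without Dnmt1-/- day 16 replicate 2 (-1.02).

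The ITAM adaptors Tyrobp and Fcer1g rose in wt EBs, and in the mutants neither was called between day 4 and day 16. Tyrobp had a log2 signal of 4.69 and 5.28 in TKO, 5.22 and 5.31 in Dnmt1-/-, and 7.19 and 7.41 in wt at day 16. The mutant arrays lay within or just below the range of the 12 earlier arrays, 4.74 to 5.54, and both wt arrays lay above it. The change from day 4 to day 16 was 0.04 ± 0.24 in TKO, 0.21 ± 0.24 in Dnmt1-/- and 2.29 ± 0.24 in wt (4.88-fold, adjusted p = 5.3e-05). Its log2 difference from wt at day 16 was -2.31 ± 0.24 in TKO (4.97-fold lower, adjusted p = 3.8e-05) and -2.04 ± 0.24 in Dnmt1-/- EBs (4.10-fold, adjusted p = 0.00024).

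Fcer1g had day 16 values in Dnmt1-/- EBs that lay between those of TKO and wt EBs. Its log2 signal at day 16 was 4.75 and 5.20 in TKO, 5.91 and 5.66 in Dnmt1-/-, and 7.87 and 7.20 in wt, against 4.42 to 5.17 over the 12 earlier arrays. Both Dnmt1-/- arrays were above that band and above the TKO arrays. The change from day 4 to day 16 was 0.09 ± 0.26 in TKO, 0.86 ± 0.26 in Dnmt1-/- (adjusted p = 0.083) and 2.59 ± 0.26 in wt (6.02-fold, adjusted p = 3.7e-05). Relative to day 0, the Dnmt1-/- level was 0.99 ± 0.26 higher, just under the fold threshold (adjusted p = 0.02). It passed it without Dnmt1-/- day 0 replicate 2 (1.37) or day 16 replicate 2 (1.12).

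At day 16 the log2 difference of Fcer1g from wt was -2.56 ± 0.26 in TKO EBs (5.91-fold lower, adjusted p = 3.1e-05) and -1.75 ± 0.26 in Dnmt1-/- EBs (3.37-fold, adjusted p = 0.0013). The difference between TKO and Dnmt1-/- EBs was -0.81 (95% interval -1.37 to -0.24), which did not pass after adjustment over all probe sets (adjusted p = 0.16).

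Cd68, a lysosomal membrane glycoprotein abundant in macrophages but present in other cells, was high in ESCs as well as in day 16 EBs. At day 0 it read 8.13 and 8.07 in TKO, 8.40 and 8.55 in Dnmt1-/-, and 7.55 and 7.93 in wt. At day 4 it read 6.46 and 6.99 in TKO, 7.12 and 6.68 in Dnmt1-/-, and 7.08 and 6.37 in wt, and at day 16 it read 8.72 and 8.39 in TKO, 9.03 and 8.61 in Dnmt1-/-, and 9.36 and 9.61 in wt. Thus the level dipped at day 4 in each line, with no overlap of days 0 and 4, and was high again at day 16.

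The log2 change of Cd68 at day 4 against day 0 was -1.37 ± 0.27 in TKO (adjusted p = 0.0085), -1.57 ± 0.27 in Dnmt1-/- (adjusted p = 0.0024) and -1.02 ± 0.27 in wt (adjusted p = 0.029). The wt call was lost without wt day 0 replicate 1 (-1.21, adjusted p = 0.052), wt day 0 replicate 2 (-0.83, adjusted p = 0.21) or wt day 4 replicate 2 (-0.66, adjusted p = 0.22). The TKO call was lost without TKO day 0 replicate 1 (-1.35, adjusted p = 0.064), day 0 replicate 2 (-1.40, adjusted p = 0.051) or day 4 replicate 1 (-1.11, adjusted p = 0.11). From day 4 to day 16 Cd68 rose by 1.83 ± 0.27 in TKO (adjusted p = 0.0041), 1.92 ± 0.27 in Dnmt1-/- (adjusted p = 0.00096) and 2.76 ± 0.27 in wt (adjusted p = 2.6e-05), and the TKO call was lost without TKO day 4 replicate 1 (1.57, adjusted p = 0.069).

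Against day 0, however, the day 16 level of Cd68 was called in wt alone, with 0.45 ± 0.27 in TKO, 0.35 ± 0.27 in Dnmt1-/- and 1.74 ± 0.27 in wt. Its difference from wt at day 16 was -0.93 ± 0.27 in TKO (adjusted p = 0.035) and -0.66 ± 0.27 in Dnmt1-/- EBs (adjusted p = 0.22), both under the fold threshold.

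Ptprc, the phosphatase CD45 that marks nearly all nucleated blood cells, rose in wt EBs. Its log2 signal at day 16 was 4.19 and 4.68 in TKO, 4.36 and 4.69 in Dnmt1-/-, and 5.46 and 6.10 in wt, against 4.07 to 4.54 over the 12 earlier arrays. The upper array of each mutant lay just above that band, and both wt arrays lay well above it. The change from day 4 to day 16 was 0.20 ± 0.24 in TKO, 0.25 ± 0.24 in Dnmt1-/- and 1.51 ± 0.24 in wt (2.85-fold, adjusted p = 0.0011). The difference of Ptprc from wt at day 16 was -1.34 ± 0.24 in TKO (adjusted p = 0.0025) and -1.25 ± 0.24 in Dnmt1-/- EBs (adjusted p = 0.008). The Dnmt1-/- call was lost without wt day 16 replicate 2 (-0.93, adjusted p = 0.092) or Dnmt1-/- day 16 replicate 1 (-1.09, adjusted p = 0.09).

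**Figure D2:**
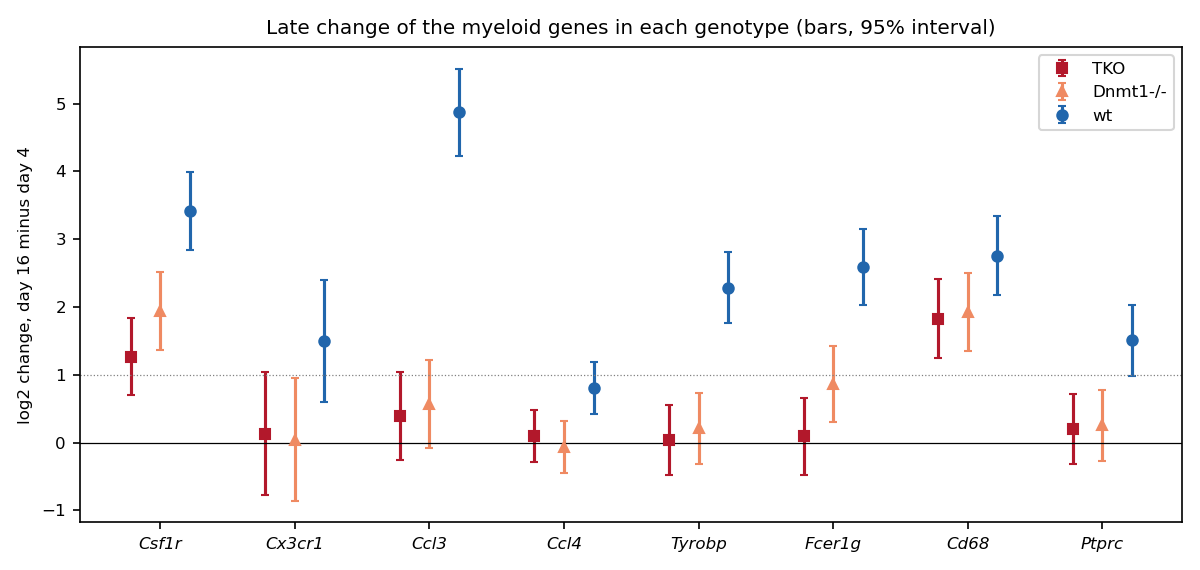
Log2 change from day 4 to day 16 (y axis) of the 8 myeloid genes (x axis) in TKO (squares), Dnmt1-/- (triangles) and wt (circles), as points with 95% intervals from limma. The dotted line marks the 2-fold threshold; wt points range between 0.80 and 4.87, and in TKO and Dnmt1-/- only Csf1r and Cd68 were called.

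Counted over the 8 genes, more were called higher from day 4 to day 16 in wt EBs than in either mutant, and the same number in both mutants. In TKO EBs 2 of the 8 rose (Csf1r and Cd68), against 0.794% of all probe sets called higher in that comparison. Leaving out single TKO arrays, the count was 0 without day 4 replicate 1 and 1 without any other, and in a fit of the 4 TKO arrays alone it was 0. In Dnmt1-/- EBs the same 2 genes rose, against 2.39% of all probe sets. That count was never lower, but not always the same, with single arrays left out. In wt EBs 7 of 8 rose, all but Ccl4, against 3.94%. The median log2 change of the 8 genes was 0.17 in TKO, 0.41 in Dnmt1-/- and 2.44 in wt, beside 0.01, -0.07 and -0.08 over all probe sets.

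From day 0 to day 16, 1 of the 8 genes rose in TKO (Csf1r, background 1.87%), 2 in Dnmt1-/- (Csf1r and Ccl3, background 4.80%) and 7 in wt (background 6.17%). The Csf1r call in TKO, 1.26 ± 0.26 (adjusted p = 0.016), was lost without day 0 replicate 1 (1.11, adjusted p = 0.15), day 0 replicate 2 (1.40, adjusted p = 0.054) or day 16 replicate 1 (1.13, adjusted p = 0.13). The Dnmt1-/- count was 1 without day 0 replicate 1 or day 16 replicate 1, when Ccl3 was lost, and 3 without the other array of either day, when Fcer1g was added. The Cx3cr1 call in wt, 1.64 ± 0.42, was lost without wt day 0 replicate 1 (1.55, adjusted p = 0.067) or wt day 16 replicate 2 (0.88, adjusted p = 0.13). In the first period, from day 0 to day 4, Cd68 was the 1 gene of the 8 that fell in each line, against 0.898% of all probe sets called lower in TKO, 2.05% in Dnmt1-/- and 2.08% in wt.

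Between genotypes, none of the 8 genes was called in ESCs by limma, where 0.304% of all probe sets were called for TKO against wt, 0.355% for Dnmt1-/- against wt and 0.00563% for TKO against Dnmt1-/-. At an unadjusted p below 0.05, 0, 1 and 0 of the 8 passed in these comparisons. At day 4 the 1 call was that of Ccl3 in Dnmt1-/- against wt EBs (background 0.712% called higher), and none was called for TKO against wt (2.92% in either direction) or for TKO against Dnmt1-/- (0.848%), with 0 and 1 genes at an unadjusted p below 0.05. At day 16, 6 of the 8 genes were lower in TKO than in wt EBs, against 3.43% of all probe sets. The same 6, all but Ccl4 and Cd68, were lower in Dnmt1-/- than in wt EBs, against 1.36%. Since both comparisons use the same wt arrays, they are not independent. In fits of the 4 arrays compared alone, 4 of the 6 calls held for TKO (not Ptprc and Cx3cr1) and 2 of the 6 for Dnmt1-/- (Ccl3 and Tyrobp).

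The arrays of TKO and wt EBs did not overlap at day 16 for any of the 8 genes, all lower in TKO, where 20.7% of all probe sets lay entirely lower. The same held for Dnmt1-/- EBs, where 22.3% did. Between TKO and Dnmt1-/- EBs at day 16 none of the 8 was called, against 0.941% of all probe sets called lower, with 3 at an unadjusted p below 0.05. Those 3 were Ccl3, Fcer1g and Csf1r, all lower in TKO. The difference for Ccl3 was -1.29 (95% interval -1.94 to -0.65, adjusted p = 0.051), and it was called with the replicate number as a block (adjusted p = 0.021). With that block Ccl3 was also called between TKO and Dnmt1-/- EBs at day 4 (-1.12, adjusted p = 0.046).

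Whether the late change itself differed between lines was tested as the difference of the 2 changes. From day 4 to day 16, 4 of the 8 genes changed less in TKO than in wt EBs, against 2.24% of all probe sets. They were Ccl3 (-4.47 ± 0.42, adjusted p = 9.5e-05), Fcer1g (-2.50 ± 0.37, adjusted p = 0.0022), Tyrobp (-2.25 ± 0.34, adjusted p = 0.0026) and Csf1r (-2.14 ± 0.37, adjusted p = 0.0072). For Ptprc, Cx3cr1, Cd68 and Ccl4 the difference ran the same way, between -1.36 and -0.71, and was not called (adjusted p from 0.057 to 0.30). With the replicate number as a block, Ptprc was called (-1.31, adjusted p = 0.018).

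In Dnmt1-/- against wt EBs, 2 of the 8 genes changed less, against 0.634% of all probe sets. These were Ccl3 (-4.30 ± 0.42, adjusted p = 0.00058) and Tyrobp (-2.08 ± 0.34, adjusted p = 0.012). Fcer1g was not called (-1.73 ± 0.37, adjusted p = 0.051) but was with the replicate number as a block (adjusted p = 0.044), and Csf1r had -1.47 ± 0.37 (adjusted p = 0.13). The Tyrobp call was lost without wt day 4 replicate 1 (-1.84, adjusted p = 0.064) or Dnmt1-/- day 16 replicate 1 (-2.03, adjusted p = 0.056), while Fcer1g passed without wt day 16 replicate 2 (-2.06, adjusted p = 0.026) and Csf1r without wt day 16 replicate 1 (-2.02, adjusted p = 0.0016). Fitted on the arrays compared alone, the Tyrobp call in Dnmt1-/- and the Csf1r call in TKO were lost (adjusted p = 0.068 and 0.089). For TKO, leaving out wt day 16 replicate 1 added Ptprc (-1.63, adjusted p = 0.022) and Cx3cr1 (-2.12, adjusted p = 0.031).

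To set the 8 genes beside other genes of the same cells, 96 further myeloid genes were listed by role, of which 88 were measured. From day 4 to day 16, 2 of the 88 rose and 1 fell in TKO, 8 rose in Dnmt1-/-, and 31 rose and 1 fell in wt EBs. Of all probe sets, 0.794%, 2.39% and 3.94% were called higher in these comparisons, in that order. At day 16, 28 were lower and 2 higher in TKO than in wt, and 22 were lower and 1 higher in Dnmt1-/- than in wt. Of all probe sets, 3.43% were lower and 2.40% higher in TKO, and 1.36% lower and 1.53% higher in Dnmt1-/- EBs. The same shares apply to the lists below. The median log2 difference of the 88 genes was -0.57 for TKO and -0.47 for Dnmt1-/-, beside 0.05 and -0.03 over all probe sets.

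Most of these calls were macrophage surface and effector genes, 34 of which were measured. Of these, 1 rose and 1 fell from day 4 to day 16 in TKO, 4 rose in Dnmt1-/- and 22 rose in wt EBs. The largest rises in wt were those of lysozyme Lyz2 (5.10), the phagosomal protease Ctss (4.28), the tetraspanin Cd53 (3.93) and the pore-forming protein Mpeg1 (3.68), on the log2 scale. Lyz2 has a close paralogue, Lyz1, so its probe set may not separate them.

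Lyz2 read 3.66 and 3.95 in TKO, 6.08 and 5.31 in Dnmt1-/-, and 9.22 and 8.68 in wt EBs at day 16. It was 1 of 3 genes of this group called between the mutants, with a log2 difference of -1.90 between TKO and Dnmt1-/- EBs. Ctss had 4.44 and 5.15 in TKO, 4.97 and 5.45 in Dnmt1-/-, and 8.38 and 9.24 in wt. The defining macrophage marker Adgre1 had 3.86 and 3.84 in TKO, 3.96 and 4.10 in Dnmt1-/-, and 5.91 and 6.34 in wt, and its groups of mutants and wt did not overlap.

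The complement chains C1qa, C1qb and C1qc, made largely by macrophages, were lower than in wt at day 16, with log2 differences of -2.89, -3.26 and -3.14 in TKO and -2.48, -3.17 and -3.09 in Dnmt1-/- EBs. Cd14, the lipopolysaccharide co-receptor, had -2.34 in TKO and -1.90 in Dnmt1-/- EBs, and the mannose receptor Mrc1 had -1.63 in TKO and -1.22 in Dnmt1-/- EBs. In total 19 of the 34 were lower in TKO and 17 in Dnmt1-/- than in wt, and 0 were higher. The marker Aif1 (Iba1) was not called in either comparison, at 4.71 on average in TKO, 4.55 in Dnmt1-/- and 5.40 in wt.

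**Figure D3:**
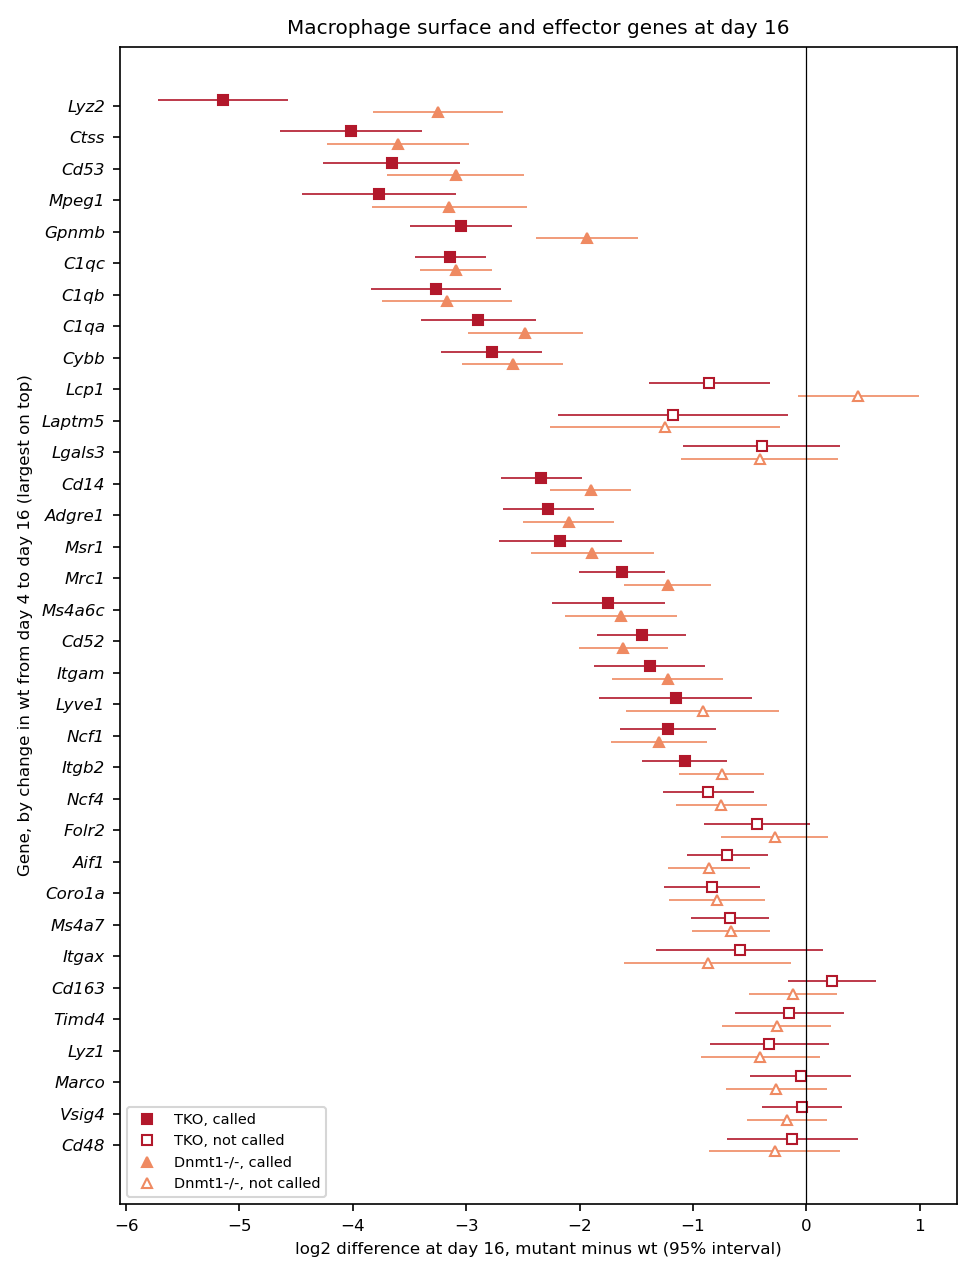
Log2 difference at day 16 from wt EBs (x axis, with 95% intervals) of 34 macrophage surface and effector genes (y axis), for TKO (squares, above) and Dnmt1-/- (triangles, below). Filled symbols were called, 19 for TKO and 17 for Dnmt1-/-; genes are ordered by their change in wt from day 4 to day 16, and Lcp1 has the highest Dnmt1-/- difference of the 34 (0.46, not called).

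Few genes of this list rose in the mutants. In TKO EBs the 1 gene that rose was Lgals3, a galectin of many cell types (1.42), and the actin regulator Coro1a fell (-1.27). In Dnmt1-/- EBs the 4 were the actin bundler Lcp1 (2.54), Lyz2 (2.01), Lgals3 (1.77) and the glycoprotein Gpnmb (1.41). At day 16 Lcp1 read 7.79 and 7.50 in TKO, 9.18 and 8.73 in Dnmt1-/-, and 8.52 and 8.48 in wt EBs.

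Among receptors listed as coupled to ITAM-type signalling, 15 were measured. From day 4 to day 16 limma called 0 in TKO, 0 in Dnmt1-/- and 2 in wt EBs (1, 2 and 6 at an unadjusted p below 0.05 in either direction). The 2 were the C-type lectins Clec4n (2.73), which read 2.76 and 3.40 in TKO, 3.72 and 3.78 in Dnmt1-/-, and 6.40 and 5.61 in wt at day 16, and Clec4d (1.85). Both were lower in either mutant than in wt at day 16. Among 12 further chemokines and chemokine receptors, 0 rose in TKO (1 at an unadjusted p below 0.05), 3 in Dnmt1-/- and 4 in wt. Cxcl10, a chemokine induced by interferon, rose by 1.00 in Dnmt1-/- and 2.37 in wt, and Ccl9 by 1.02 in Dnmt1-/- and 1.71 in wt, whereas Ccl12 rose in wt alone among the calls (1.55). Not all 3 genes called in Dnmt1-/- are named. The largest change on this list in Dnmt1-/- EBs was 1.17, in neither Cxcl10 nor Ccl9. Over the 12 genes the late change in Dnmt1-/- minus that in wt ranged from -1.39 to 0.55, so not every gene changed less in Dnmt1-/- EBs. Against wt at day 16, 4 of the 12 were called lower in TKO and 1 in Dnmt1-/- EBs, and 0 were called higher in either.

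Of 12 kinases and signalling proteins of immune cells, 1 rose in TKO, 0 in Dnmt1-/- and 0 in wt EBs, with 1, 3 and 7 at an unadjusted p below 0.05. That gene was Inpp5d, which encodes the phosphatase SHIP, and it ran opposite to the 8 genes. It read 8.55 and 8.46 in TKO, 7.67 and 7.47 in Dnmt1-/-, and 6.46 and 6.62 in wt at day 16, and was higher in TKO by 1.97 and in Dnmt1-/- by 1.03.

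Of 13 transcription factors of the myeloid lineage, 0 rose in TKO (4 at an unadjusted p below 0.05), 1 in Dnmt1-/- and 3 in wt EBs from day 4 to day 16, and Myb, which marks progenitors, fell in wt (-1.33). Irf8, which monocytes require, read 5.83 and 5.71 in TKO, 5.61 and 5.74 in Dnmt1-/-, and 6.65 and 7.46 in wt at day 16. Spi1 read 5.24 and 5.63 in TKO, 5.13 and 5.21 in Dnmt1-/-, and 5.68 and 5.75 in wt, and was not called in any of these comparisons. Against wt at day 16, 3 of the 13 were called lower and 1 higher in TKO, with log2 differences from -1.71 to 1.25. In Dnmt1-/- EBs 1 was called lower and 0 higher. Runx1, required for the emergence of definitive blood, had a called log2 difference of -1.71 in TKO against wt, and the Dnmt1-/- difference of -0.61 was not called.

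Markers of other cell types were read on the same arrays. Of 12 granulocyte genes, 0 rose in TKO (3 at an unadjusted p below 0.05), 2 in Dnmt1-/- and 2 in wt EBs from day 4 to day 16, in each case Lcn2 and Cxcr2, while the granule genes Mpo and Elane averaged 5.07 and 4.87 in TKO, 4.83 and 4.67 in Dnmt1-/-, and 4.88 and 4.81 in wt at day 16. Of 12 lymphoid genes none rose in any line, with 0, 1 and 1 at an unadjusted p below 0.05 in TKO, Dnmt1-/- and wt. Of all probe sets, 0.794%, 2.39% and 3.94% were called higher in these lines. At such shares a short list can hold no call, so 0 calls do not show that a cell type was absent. Of 8 megakaryocyte and mast cell genes 0 rose in TKO (3 at an unadjusted p below 0.05), 3 in Dnmt1-/- and 2 in wt, among them the platelet chemokine Pf4, which read 5.72 and 5.06 in TKO, 6.54 and 6.59 in Dnmt1-/-, and 7.94 and 7.39 in wt at day 16.

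Endothelial genes also changed between day 4 and day 16. Of 11 measured, 1 rose in TKO, 2 rose and 1 fell in Dnmt1-/-, and 4 rose and 1 fell in wt EBs. Cdh5, the cadherin of endothelial junctions, rose in each line, by 1.36 in TKO, 2.29 in Dnmt1-/- and 2.85 in wt. The late change was smaller in TKO than in wt for 3 of the 11 (Cd34, Emcn and Tie1, median of the list -0.99) and in Dnmt1-/- than in wt for 1 (Cd34, median -0.45). Of all probe sets, 2.24% and 0.634% were called lower in these tests. The mean log2 signal of the list at day 16 was 7.09 and 6.84 in TKO, 7.37 and 7.14 in Dnmt1-/-, and 7.50 and 6.96 in wt, and these overlapped. Of 9 erythroid genes limma called 0 higher in TKO, Dnmt1-/- or wt EBs over this period and 1 lower, Epor in Dnmt1-/- (2, 2 and 3 at an unadjusted p below 0.05). Replicates differed in the mean log2 signal of this list, with 6.2 and 7.6 in Dnmt1-/- EBs at day 4. In wt EBs at day 16 it was 6.8 and 5.4, so the lack of calls does not show a steady level. The part of these cell types in the differences of the 8 genes was not tested.

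**Figure D4:**
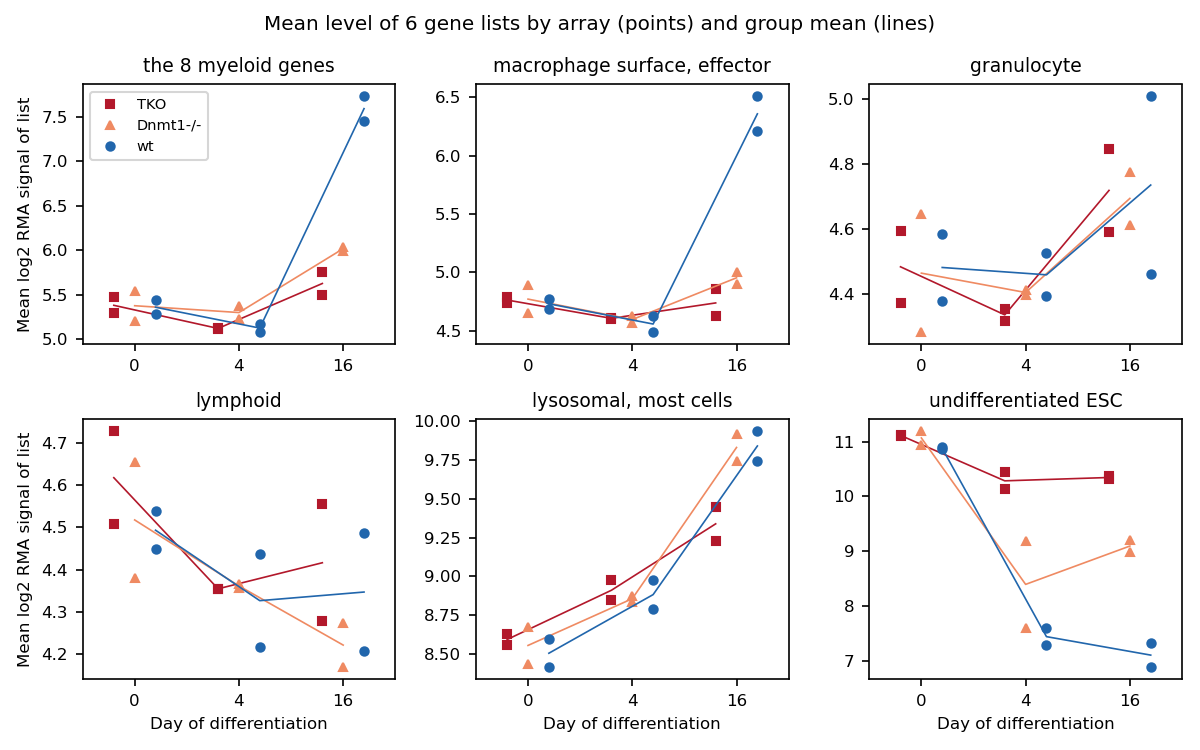
Mean log2 RMA signal (y axis) of 6 gene lists at day 0, 4 and 16 (x axis) in TKO (squares), Dnmt1-/- (triangles) and wt (circles); points are arrays and lines join group means. The wt day 16 arrays stand apart for the 8 myeloid genes and the macrophage list, while the lysosomal list was higher at day 16 than at day 4 in each line. The list of undifferentiated ESC genes was highest in TKO at day 4 and day 16.

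As Cd68 is a lysosomal protein, 17 lysosomal genes used by most cells were set beside it. Their mean log2 signal at day 16 was 9.45 and 9.23 in TKO, 9.92 and 9.74 in Dnmt1-/-, and 9.74 and 9.94 in wt EBs, and 2, 7 and 9 of the 17 rose from day 4 to day 16 in these lines. The protease Ctsb rose in each of them, by 1.25, 2.01 and 2.47 in that order. From day 0 to day 4, when Cd68 fell in each line, the median log2 change of the list was 0.38 in TKO, 0.23 in Dnmt1-/- and 0.35 in wt, and 1, 1 and 0 of the 17 fell. The list thus ran with Cd68 in the later period and not in the earlier one, and its part in the Cd68 changes was not tested.

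Genes of undifferentiated ESCs moved the other way at day 16. All 6 on the list, among them Pou5f1 and Nanog, were higher in TKO and 4 of 6 were higher in Dnmt1-/- than in wt EBs. The mean log2 signal of the list was 10.3 and 10.4 in TKO, 9.20 and 8.99 in Dnmt1-/-, and 7.33 and 6.89 in wt. The part of this difference in the lower macrophage signals of the mutants was not tested.

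Across the 18 arrays the 8 genes followed one another to different degrees. The 28 pairwise correlations ranged from 0.44 (Cd68 with Ccl4) to 0.94 (Ptprc with Tyrobp), with a median of 0.82. They share the 2 wt day 16 arrays as their high end, and over the 16 other arrays the range was -0.20 to 0.72 and the median 0.39. Csf1r and Fcer1g kept the highest value there, 0.72, while Ccl3 and Ccl4 had -0.20.

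The 10 genes whose level was most like the mean of the 8, among 3134 probe sets with an SD of at least 0.5 over the arrays, had Pearson correlations of 0.97 to 0.98 over the 18 arrays. The Spearman values ranged from 0.72 to 0.88, and over the 16 arrays without wt day 16 the Pearson values were 0.78 to 0.91. In descending order they were Islr, Itih2, Gpnmb, C3ar1, Upk1b, Col6a2, Serpina6, Tpbpb, Col6a3 and Kng2. Of these, only Gpnmb was on a list above, that of macrophage genes. C3ar1 is the receptor for complement C3a and is found on macrophages, and Col6a2 and Col6a3 encode collagen VI chains of connective tissue. The cell types that express Islr, Itih2, Upk1b, Serpina6, Tpbpb and Kng2 were not examined. All 10 had their highest day 16 mean in wt EBs and their lowest in TKO EBs. The pattern was thus not limited to the listed myeloid genes. These correlations rest on 9 groups and describe the arrays only.

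No array was set aside. Correlations between replicates ranged from 0.981 to 0.991, and median log2 signals from 5.77 to 5.90. Dnmt1 probe set signals were 8.40 to 8.86 in TKO and Dnmt1-/- arrays and 9.16 to 9.77 in wt arrays, and Dnmt3a signals were 6.45 to 7.65 in TKO, 7.96 to 9.38 in Dnmt1-/- and 7.96 to 9.45 in wt arrays. Dnmt3b read 7.33 and 7.45 in TKO at day 0, when the lower wt array was at 9.80, and 8.88 and 8.58 in TKO against 9.04 and 9.70 in wt at day 4. At day 16 it read 7.52 and 7.71 in TKO against 7.16 and 7.41 in wt, so that Dnmt3b was not lower in TKO at that day. How the probes lie relative to the deleted exons was not examined. The RMA values carry no call of presence, so whether the low values of these genes in ESCs and day 4 EBs lie at background was not tested, and fold changes from such values may understate the true change.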

How the data were processed

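Mouse ESCs and EBs of 3 genotypes at 3 days were measured on 18 arrays. The values are log2 signals for each probe set, deposited by the authors after RMA, which corrects background, equalizes the arrays and combines the probes of a set. No source used here gives its version, its probe annotation or a filter. They were used as deposited, with all 35512 probe sets, of which 21789 have 1 gene symbol, 1621 several and 12102 none. Differences between group means were fitted with limma 3.58.1 in R 4.3.3 over all arrays (lmFit, contrasts.fit, eBayes, 9 residual degrees of freedom), with Benjamini-Hochberg adjustment over all probe sets in each of 20 comparisons. A call required a fold of at least 2 and an adjusted p below 0.05. The fit was also run on simulated arrays with known changes and independent noise, which cannot show how it behaves when arrays share deviations. The replicates are labelled biological, and the study describes 2 independent experiments without tying a replicate number to either. P-values measure the spread between these arrays, and 2 arrays for each group limit the precision. Most further lists were reported by counts, and only a selection of their genes was named, mainly markers and genes with called changes. Many markers on these lists were not named, among them all lymphoid genes. Of 188 listed genes 171 were measured. The 8 genes and the lists were chosen with earlier results of these data known. Alternatives were another normalization, filter, variance model, replicate block, adjustment, fold threshold, set of features or set of arrays. Promoter windows are from RefSeq (GRCm38.p6).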

Additional observations from a re-analysis of the deposited data

Results flagged for a closer look

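The change from day 4 to day 16 differed from that in wt EBs, by a test of the difference itself, in 6 cases. In TKO these were Ccl3 (log2 difference of the changes -4.47), Fcer1g (-2.50), Tyrobp (-2.25) and Csf1r (-2.14). In Dnmt1-/- they were Ccl3 (-4.30) and Tyrobp (-2.08). In each case the mutant changed less than wt. Groups of 2 arrays are too small to single out an array that stands apart.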

How the results depend on the processing

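Each count of the 8 genes called was recomputed under 9 other settings and with each array of the groups left out in turn, a group left with 1 array being assumed to vary like the others. No log2 change with an unadjusted p below 0.05 turned its direction. With only the compared arrays in the fit, the count was 0 for TKO day 16 against day 4, 0 for TKO day 16 against day 0, 0 for wt day 4 against day 0, 0 for Dnmt1-/- against wt at day 4, 2 for Dnmt1-/- against wt at day 16, and 1 for the difference of late changes between Dnmt1-/- and wt. A further quantile normalization gave 1 for TKO day 16 against day 4 and 1 (Ccl3) for TKO against Dnmt1-/- at day 16. That last comparison also gave 1 without the 30% of probe sets of lowest signal (which leaves 7 of the 8 genes, without Ptprc), with the false discovery rate over all comparisons and with 1 probe set for each gene. TKO against Dnmt1-/- at day 4 gave 1 (Ccl3) with the false discovery rate over all comparisons and with 1 probe set for each gene, and adjustment over all comparisons gave 4 for the difference of late changes between Dnmt1-/- and wt. The causes were not tested.

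With single arrays left out, the counts ranged from 0 to 1 for TKO day 16 against day 4, 0 to 1 for TKO day 16 against day 0, 0 to 1 for TKO day 4 against day 0, 1 to 3 for Dnmt1-/- day 16 against day 0, 1 to 2 for Dnmt1-/- day 4 against day 0, 0 to 1 for wt day 4 against day 0, 0 to 1 for Dnmt1-/- against wt at day 4, 0 to 1 for TKO against Dnmt1-/- at day 4, and 1 to 3 for the difference of late changes between Dnmt1-/- and wt. They ranged from 5 to 6 for TKO against wt at day 16, 4 to 6 for Dnmt1-/- against wt at day 16, and 6 to 7 for wt day 16 against day 4.

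The replicate numbers are shared by all groups, and the deviations of same-numbered arrays from their group means correlated at 0.04 to 0.50 over 36 pairs of groups (above 0.1 in 32). Their median was 0.27. All 36 were positive, though 4 were below 0.1, so same-numbered arrays shared part of their deviations. No source used here ties the numbers to the 2 experiments, so what the arrays share was not established, and the main fit did not take it into account. With the replicate number as a block, 1 gene (Ccl3) was called for TKO against Dnmt1-/- at day 4 and 1 (Ccl3) at day 16, Fcer1g was added for the difference of late changes between Dnmt1-/- and wt (3 genes) and Ptprc for that between TKO and wt (5 genes), and no other call of the 8 changed. With 2 arrays for each group and no presence calls, changes of genes with low signal are the least certain.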
